A study of Homo sapiens with 10 samples.

Results

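Cells of 4 xenograft tumours that had shrunk under the Smac mimetic SM-164 and grown back were compared with the cultured cells they came from, to find the genes that moved the same way in each of the 4 tumours. A gene was counted when each tumour differed from the parental cells in the same direction, and 2132 of the 14929 genes tested met this rule. The comparison used all 10 expression arrays of the series, 8 of tumour cells and 2 of parental cells. All arrays hold RNA of MDA-MB-231, an established human breast cancer line without oestrogen and progesterone receptors or amplified ERBB2, so every group shares its line of origin. Whether the genome of the tumour cells still matched that of the parental cells was not tested. The tumours were grown in SCID mice, which lack T and B cells. SM-164 was given by intravenous injection at 5 mg/kg, on 5 days of each week, over 2 weeks, and tumour cells were isolated after regrowth. The T2 and T3 tumour cells, 2 arrays each, are labelled resistant to the drug, and the T6 and T8 tumour cells, 2 arrays each, are labelled sensitive. The parental cells, cultured under standard conditions and labelled sensitive, gave the last 2 arrays. Each tumour and the parental culture stand as a single line, and no xenograft grown without the drug was measured. Effects of growth in a mouse, of SM-164, of harvest and of peculiarities of the parental culture therefore cannot be told apart. Whether replicate arrays hold RNA of cultures grown apart is not given, and the spread between them may be technical only. All p-values here rest on that spread, except where tumours are counted as replicates, when they rest on the spread between tumours.

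Smac mimetics imitate a mitochondrial protein that binds and disables the inhibitor of apoptosis (IAP) proteins, which restrain caspases and steer signalling from the tumour necrosis factor receptor towards survival. A tumour cell in an animal meets matrix, hypoxia and host cytokines that a culture dish lacks. Among the gene programmes known to respond to such surroundings are secreted proteases and growth factors, immediate early genes driven by the ERK kinases, and the interferon-inducible machinery that displays peptides on MHC molecules.

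Expression is given as log2 values, on which a difference of 1 is a doubling. Across genes, replicate arrays had Pearson correlations of 0.996 to 0.998, and pairs of a tumour and a parental array had 0.973 to 0.983. Of 10 genes listed as typical of MDA-MB-231 cells, none was under log2 5 on all arrays, and their summed level, the log2 of their summed linear values, ran from 16.11 to 16.28 in tumour arrays, against 16.12 and 16.19 in parental arrays. Of 11 genes listed as low in this line, PGR, GRHL2 and FOXA1 were under log2 5 throughout, while EPCAM was between 8.34 and 9.25 in tumour arrays and at 8.13 and 8.67 in parental arrays. Also not low in tumour arrays were ERBB2 (8.83 to 9.22), CLDN7 (8.34 to 9.29), GATA3 (7.58 to 8.73), ESR1 (6.52 to 6.77) and ERBB3 (6.39 to 6.87). The summed level of this list was 10.85 to 11.04 in tumour arrays, against 11.11 and 11.21 in parental arrays. With the spread between arrays as error, limma called 6314 genes for the mean of the tumours (42.3%) at an adjusted p under 0.05, with 3801 higher (25.5%) and 2513 lower (16.8%). Single tumours gave 4928 calls in T2 (33%), 5653 in T3 (37.9%), 5149 in T6 (34.5%) and 6532 in T8 (43.8%). Without parental replicate 2, 4099 genes were called for the mean of the tumours and 3422 in T6, and without either T6 array T6 had 3255 and 3299 calls. These 4 comparisons share the parental arrays, so an error in a parental value enters each of them. In RNA from whole samples, fewer cells of a type and less RNA per cell cannot be told apart.

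The shared set of 2132 genes made up 14.3% of those tested. Of these, 1324 were higher (8.87% of the genes tested) and 808 lower (5.41%). Most of the shared changes were small. Taking for each gene the smallest of its 4 differences, 869 of the higher genes and 516 of the lower genes stayed under log2 0.5. Only 201 genes reached log2 1 in each tumour (1.35%), with 129 higher (0.864%) and 72 lower (0.482%). The middle of the mean differences was 0.57 for the shared higher genes and -0.58 for the shared lower genes, beside 0.002 over all genes. Of the 129 large increases, 18 started from parental arrays that both lay under log2 5, near background, and 3 of the 72 large decreases ended with all 8 tumour arrays under it, so the true size of those changes is uncertain. The call in each tumour was kept under all of 22 alternatives by 895 of the 2132 genes (42.0%) and by 191 of the 201. The share of higher genes in the shared set depended on scaling. It was 62.1% as deposited, 49.1% (1242 higher and 1288 lower) after a repeated quantile normalisation and 71.7% (1242 and 490) after centring the medians, while for the mean of the tumours it was 60.2%, 48.3% and 71.9%. When each tumour counted as 1 replicate against the lone parental line, which was assumed to vary like the tumours, limma called 195 genes (1.31%), with 110 higher (0.737%) and 85 lower (0.569%). With the line as a random block it called 1107, with 665 higher and 442 lower. All 195 belonged to the shared set, including 82 of the 129 large increases and 50 of the 72 large decreases. Each gene was read from its brightest probe set. Of 238 genes chosen for closer description, 150 had several probe sets, and as a mean over these all 150 kept their direction, 127 had a smaller difference and 72 moved by over 1.5 times.

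The gene with the largest difference that held in every tumour was MMP1, the interstitial collagenase that cleaves fibrillar collagen. Its values ran from 13.17 to 14.02, with a median of 13.63, over the 8 tumour arrays, against 9.22 and 8.995 in the parental arrays. MMP1 rose by 4.52 ± 0.06 (SE, 8 arrays against 2, as for all differences given; adjusted p = 3.64e-16), and by 4.12 in the tumour that moved least. Every tumour array lay above both parental arrays. Tumour and parental arrays did not overlap for 4207 of the genes tested (28.2%), among them each of the 15 genes per direction with the largest least difference, which are described first. KISS1, which encodes the kisspeptin precursor, ran from 10.59 to 12.12, with a median of 11.25, in tumour arrays and stood at 7.97 and 7.91 in parental arrays, a rise of 3.37 ± 0.06 (adjusted p = 6.40e-15). T8 was the highest tumour for KISS1 and T2 the lowest. EDN1, the vasoconstrictor peptide endothelin 1, ran from 10.59 to 11.37, with a median of 10.87, in tumour arrays, against 8.64 and 8.36 in parental arrays, and rose by 2.41 ± 0.07 (adjusted p = 4.92e-12). A further EDN1 probe set was not higher (-0.03), while the other gave 1.91. HAS2, a synthase of the matrix polymer hyaluronan, ran from 7.78 to 9.33, with a median of 8.23, against 6.001 and 5.64 in parental cells, and rose by 2.61 ± 0.09 (adjusted p = 2.21e-11). Its highest values were those of T8. SRGN, the core protein of the granule proteoglycan serglycin, ran from 12.72 to 13.24, with a median of 12.96, against 10.79 and 10.83 in parental cells, and rose by 2.17 ± 0.06 (adjusted p = 2.04e-12).

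ROBO1, a receptor for the axon guidance cue SLIT, ran from 8.88 to 9.35, with a median of 9.18, over the tumour arrays and stood at 6.49 and 6.38 in parental arrays, a rise of 2.71 ± 0.09 (adjusted p = 8.93e-12). Its 4 tumours lay within 0.31 of each other and were not called different (adjusted p = 0.0857, limma F test among tumours). EMB, the adhesion protein embigin that chaperones monocarboxylate transporters, ran from 8.99 to 9.26, with a median of 9.11, against 6.68 and 6.88, and rose by 2.34 ± 0.08 (adjusted p = 8.93e-12). TENM3, a teneurin of synaptic adhesion, was at 8.63 in T2, 8.25 in T3, 8.24 in T6 and 7.95 in T8, against 5.19 and 5.47 in parental cells, a rise of 2.93 ± 0.09. That rise belongs to 1 probe set of TENM3. The others gave 0.09 and -0.12, the second of them being the value without the less specific probe sets (adjusted p = 0.511). NRK, a protein kinase, was at 7.34 in T2, 9.56 in T3, 7.45 in T6 and 7.56 in T8, against 4.39 and 4.67 in parental cells, which are near background. T3 stood far above the other tumours for NRK. RGS17, which shortens signals of inhibitory G proteins, rose by 2.37 ± 0.11, and its parental values of 4.58 and 4.36 were also near background. The remaining genes of this group were SEL1L3 (3.06), SAMD5 (2.495), ZNF804A (2.46), SUSD5 (2.36) and CRISPLD1 (2.33), whose adjusted p-values were at most 3.29e-09. Mean differences over all probe sets were 2.12 for NRK, 1.34 for SEL1L3, 1.36 for EMB, 1.43 for EDN1 and 1.23 for SRGN. With tumours as replicates, 12 of these 15 genes were called, and the others were NRK (adjusted p = 0.117), HAS2 (adjusted p = 0.0716) and SEL1L3 (adjusted p = 0.0505).

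**Figure D1:**
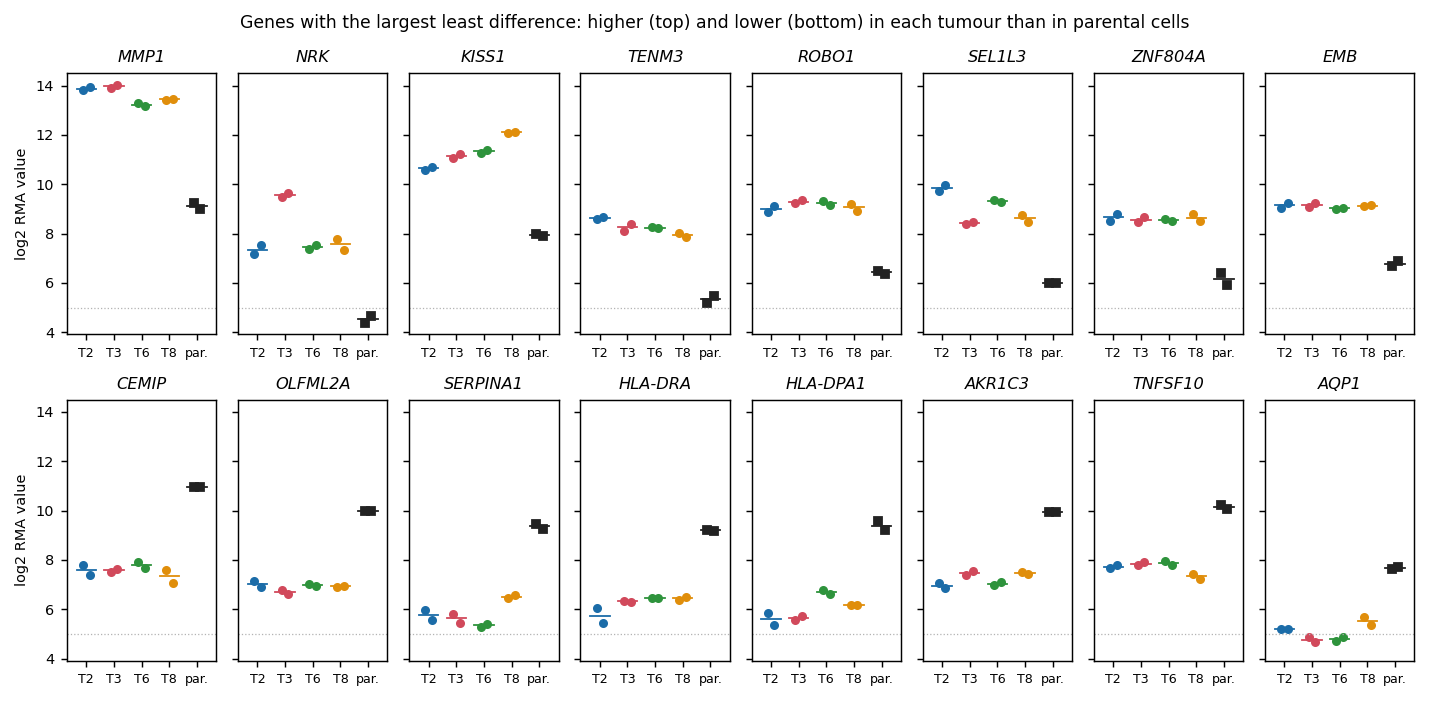
Log2 values (vertical axes) of the 8 genes with the largest least difference in each direction, higher in the tumours in the upper row and lower in the lower row. Circles are the 2 arrays of T2, T3, T6 and T8, squares the 2 parental arrays (par.), horizontal strokes the line means and the dotted line log2 5. MMP1 lies between 13.17 and 14.02 in the tumours, against 9.22 and 8.995 in parental cells, and in each panel all tumour arrays stand on one side of both parental arrays.

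Among the decreases, CEMIP led, a protein needed for the breakdown of hyaluronan. CEMIP ran from 7.08 to 7.92, with a median of 7.63, over the tumour arrays, against 10.97 and 10.97 in the parental arrays, and fell by 3.39 ± 0.12 (adjusted p = 2.35e-11). OLFML2A, a secreted olfactomedin-domain protein, ran from 6.63 to 7.13, with a median of 6.91, against 9.96 and 9.96, and fell by 3.06 ± 0.08 (adjusted p = 2.07e-12). SERPINA1, the antitrypsin that inhibits neutrophil elastase, ran from 5.30 to 6.58, with a median of 5.68, against 9.45 and 9.27, and fell by 3.54 ± 0.12 (adjusted p = 1.19e-11). T8 kept the most SERPINA1 and T6 the least. LOXL4, a lysyl oxidase that crosslinks matrix proteins, ran from 7.48 to 8.08, with a median of 7.92, against 10.05 and 10.14, and fell by 2.24 ± 0.07 (adjusted p = 6.33e-12). TNFSF10, which encodes the death ligand TRAIL, ran from 7.22 to 7.96, with a median of 7.78, against 10.21 and 10.08, and fell by 2.46 ± 0.08 (adjusted p = 1.03e-11). The tumours stood together for OLFML2A and TNFSF10, each within 0.54, and no tumour array came within 2 of the parental values.

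The other 10 of the 15 decreases were of genes with varied roles. AQP1, a water channel, ran from 4.65 to 5.68, with a median of 5.05, in tumours, against 7.62 and 7.72 in parental cells, and fell by 2.60 ± 0.11 (adjusted p = 1.84e-10). SCNN1A, the alpha subunit of the epithelial sodium channel, fell by 2.23 ± 0.13 to values from 5.79 to 6.44, with a median of 6.23, against 8.58 and 8.28 in parental cells. AKR1C3, an aldo-keto reductase of steroid and prostaglandin metabolism, fell by 2.69 ± 0.08 and ran from 6.85 to 7.56, with a median of 7.25, against 9.92 and 9.92. CYP1B1, a cytochrome P450 induced through the aryl hydrocarbon receptor, was at 9.97 in T2, 8.54 in T3, 8.96 in T6 and 8.52 in T8, against 11.88 and 11.85 in parental cells, a decrease of -2.87 ± 0.06 in which T2 was the least affected. STMN3, a stathmin that binds tubulin, fell by 2.505 ± 0.09. FLG, the epidermal protein filaggrin, fell by 2.35 ± 0.14, most in T3. HCP5, a noncoding gene of the MHC region, fell by 1.95 ± 0.11, evenly over the tumours. The class II genes HLA-DRA and HLA-DPA1 and the invariant chain CD74 complete the 15 and are described with antigen presentation. Over all probe sets, differences averaged -2.10 for CEMIP, -2.002 for SERPINA1, -1.21 for LOXL4, -0.87 for SCNN1A and -1.37 for CD74. With tumours as replicates 13 of the 15 were called, the exceptions being CD74 (adjusted p = 0.0505) and CYP1B1 (adjusted p = 0.0679).

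To place the shared changes among pathways, 108 gene lists with 2712 distinct genes were counted. Of these genes 2148 were tested and 448 belonged to the shared set. In 36 lists, beside the 7 lists of cell markers, at least 3 members and at least 25% of those tested were called, and 5 lists had no called member. No set test was run, so the counts are read against 8.87% higher and 5.41% lower over all genes. With tumours as replicates, each list described had at most 5 called members. None was called among collagens, integrins, interleukins and other cytokines, EGFR ligands or G protein coupled receptors. The same held for AP-1 subunits, immediate early genes, IAP proteins, PI3K, AKT and mTOR genes, the tricarboxylic acid cycle and fatty acid synthesis.

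**Figure D2:**
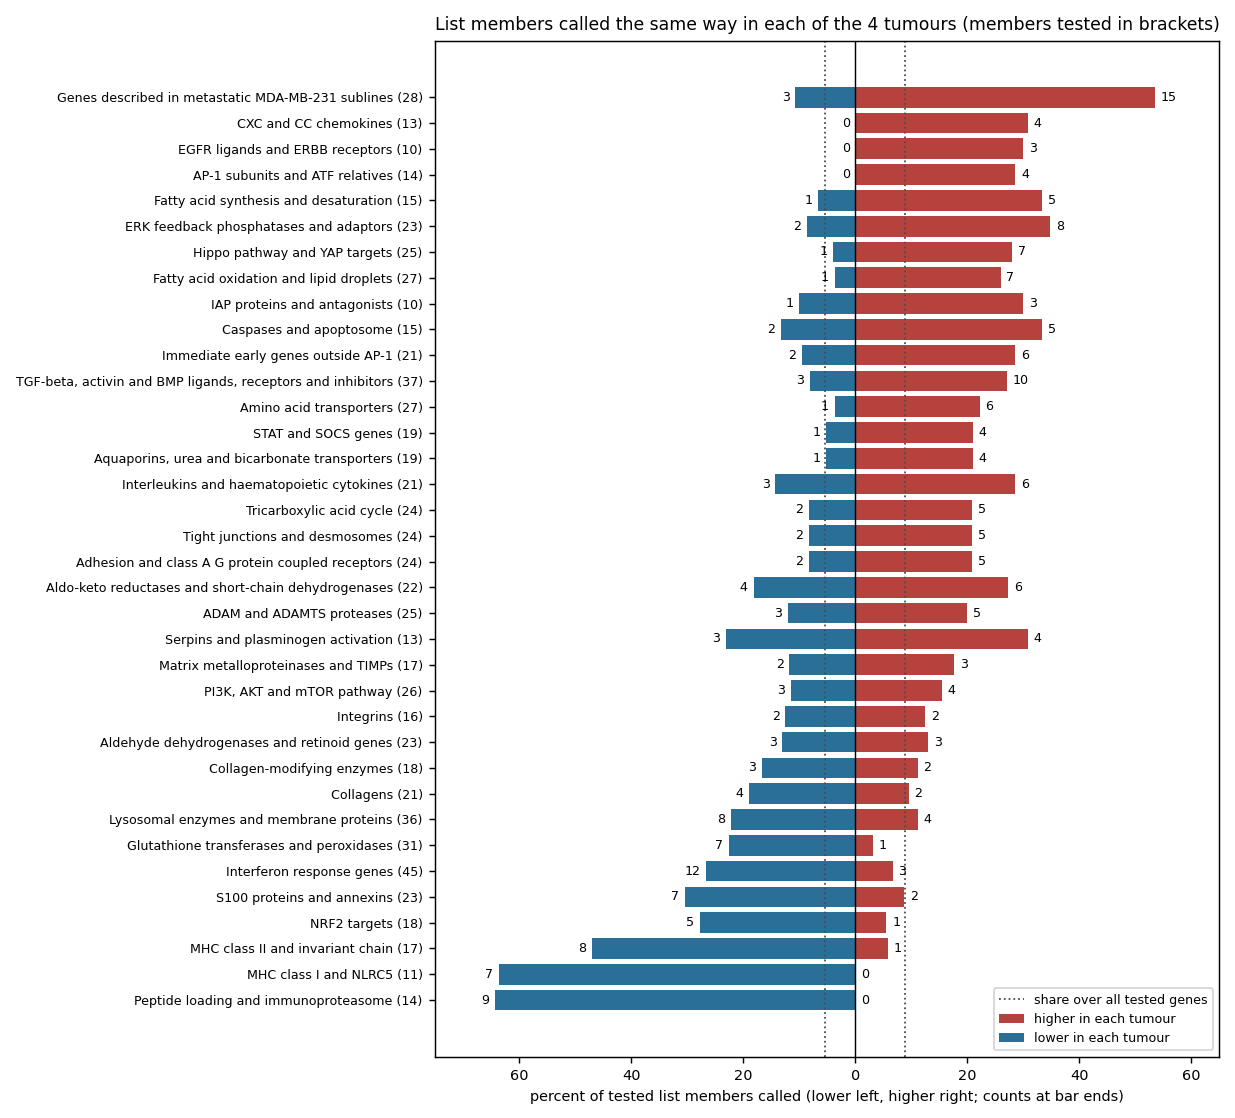
Percent of tested members in the shared set (horizontal axis, higher to the right, lower to the left) for the 36 lists described, with the number tested in brackets and the number called at the bar ends. Dotted lines mark the shares over all tested genes, 8.87% higher and 5.41% lower. Metastatic subline genes, with 15 of 28 higher, stand at the top, and peptide loading genes, with 9 of 14 lower, at the bottom.

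Genes of the extracellular matrix moved in both directions. Of 17 tested matrix metalloproteinases and their inhibitors, 3 rose and 2 fell in each tumour. Those that rose were the proteases MMP1, MMP3 and MMP10, and those that fell were the inhibitors TIMP1 and TIMP3. For the mean of the tumours 6 fell, since the inhibitor TIMP2 (-0.41) and the proteases MMP14 (-0.29), MMP15 (-0.47) and MMP25 (-0.33) were called there as well. MMP3, the stromelysin that can activate other collagenases, was at 6.001 in T2, 9.43 in T3, 6.13 in T6 and 6.97 in T8, against 4.58 and 4.86 in parental cells near background, a rise of 2.41 ± 0.09. T3 stood far above the other tumours for MMP3. MMP10 rose by 1.15 ± 0.12, to between 4.89 and 5.90 in tumour arrays, against 4.40 and 4.14 in parental arrays. TIMP1 ran from 12.35 to 12.67, with a median of 12.51, in tumours, against 13.34 and 13.22 in parental cells, and fell by 0.76 ± 0.05 (adjusted p = 7.95e-09). TIMP3, the inhibitor that binds to matrix, ran from 9.99 to 10.74, with a median of 10.44, against 11.58 and 11.60, and fell by 1.19 ± 0.06 (adjusted p = 5.17e-10). The median difference of the 17 genes was -0.18, and the 12 others were not called in each tumour.

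Of 25 ADAM and ADAMTS proteases 5 rose and 3 fell. ADAMTS1, which cleaves the proteoglycan versican, ran from 8.25 to 9.15, with a median of 8.81, against 6.20 and 6.38, and rose by 2.43 ± 0.08 (adjusted p = 8.93e-12). ADAM17, the sheddase that frees tumour necrosis factor and EGFR ligands, rose by 0.64 ± 0.06. ADAM10, a sheddase of Notch, fell by 0.55 ± 0.06. ADAMTS15 ran from 8.45 to 8.72, with a median of 8.69, against 10.28 and 10.22 in parental cells, and fell by 1.63 ± 0.07. Serpins and plasminogen activation genes split 4 higher and 3 lower of 13. PLAU, the urokinase that activates plasminogen, fell by 1.06 ± 0.05, whereas its receptor PLAUR rose by 0.44 ± 0.05. SERPINE2, an inhibitor of thrombin and urokinase, rose by 0.96 ± 0.06. The granzyme B inhibitor SERPINB9 fell by 1.04 ± 0.07. Collagens had 2 higher and 4 lower of 21, led by COL5A1 (-1.33 ± 0.08) and COL18A1 (-0.95 ± 0.06) downward and COL12A1 (0.70 ± 0.09) upward. For COL6A1 (-0.87) and COL6A2 (-0.89) the call ended as a mean over probe sets, at -0.30 and -0.44, and without the less specific probe sets, at -0.20 and 0.015, and for COL6A2 also without T6 replicate 2 (-0.88). Averaging over probe sets gave -0.99 for ADAMTS15, 0.48 for SERPINE2 and 0.33 for COL12A1. Collagen-modifying enzymes had 2 higher and 3 lower of 18, of which LOXL4 alone kept its call under all 22 alternatives tried.

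Cell contacts were also mixed. Integrins had 2 higher and 2 lower of 16. ITGB2, the beta chain of leukocyte integrins, was at 7.93 in T2, 7.92 in T3, 7.93 in T6 and 8.97 in T8, against 7.23 and 7.16 in parental cells, a rise of 0.99 ± 0.08 that one of its other probe sets did not share (-0.08). ITGB5, a beta chain that pairs with the alpha V subunit, fell by 0.68 ± 0.05. Of 24 genes of tight junctions and desmosomes 5 rose and 2 fell. OCLN, the tight junction protein occludin, ran from 9.17 to 9.65, with a median of 9.49, against 8.42 and 8.35, and rose by 1.09 ± 0.07 (adjusted p = 1.27e-08). CLDN1, a claudin of tight junctions, rose by 1.21 ± 0.11, while CLDN4 fell by 0.52 ± 0.07. PPL, the desmosomal linker periplakin, ran from 5.11 to 5.91, with a median of 5.64, against 7.33 and 7.26, and fell by 1.72 ± 0.10. Mean differences over all probe sets were 0.60 for ITGB2, -0.43 for ITGB5, 0.72 for OCLN and -0.33 for CLDN4.

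Chemokines and cytokines are secreted signals between cells. Of 13 tested CXC and CC chemokines 4 rose and none fell, beside 8.87% higher and 5.41% lower over all genes, and all 4 attract neutrophils through the receptors CXCR1 and CXCR2. CXCL8 was at 8.74 in T2, 10.47 in T3, 8.88 in T6 and 9.79 in T8, against 7.79 and 7.87 in parental cells, a rise of 1.64 ± 0.06 (adjusted p = 6.09e-11). CXCL1 was at 6.82 in T2, 7.94 in T3, 7.45 in T6 and 8.20 in T8, against 6.13 and 5.68, a rise of 1.69 ± 0.12 (adjusted p = 4.27e-08). Both were highest in T3 and T8 and lowest in T2. CXCL2 ran from 8.11 to 8.70, with a median of 8.52, against 7.16 and 7.12, and rose by 1.37 ± 0.08. CXCL3 rose by 1.93 ± 0.17, with parental arrays that differed from each other, at 5.96 and 4.98. The 13 chemokines had a median difference of -0.04, so the list did not rise as a whole. Over all probe sets, the difference averaged 0.46 for CXCL2. CXCL1, CXCL2 and CXCL3 are close in sequence, and probe sets of such genes can share signal.

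Interleukins and other cytokines had 6 higher and 3 lower of 21. IL18, a cytokine stored as an inactive precursor, was at 10.24 in T2, 8.90 in T3, 9.66 in T6 and 9.27 in T8, against 7.70 and 7.21 in parental cells, a rise of 2.06 ± 0.12 (adjusted p = 3.36e-09). IL11, a cytokine of the interleukin 6 family, was at 11.05 in T2, 9.69 in T3, 10.81 in T6 and 10.54 in T8, against 9.18 and 9.12, a rise of 1.38 ± 0.05 (adjusted p = 4.18e-11). T2 was the highest tumour for both and T3 the lowest. IL7 (1.34 ± 0.15) and IL12A (0.88 ± 0.11) rose as well, IL7 from parental values of 3.97 and 3.92 near background. CSF1, the growth factor of macrophages, ran from 8.35 to 8.95, with a median of 8.59, against 9.67 and 9.71, and fell by 1.10 ± 0.07 (adjusted p = 8.30e-09). Among 10 EGFR ligands, ERBB receptors and their regulators 3 rose and none fell in each tumour, while for the mean of the tumours 5 rose and 3 fell. The calls of HBEGF (0.40) and of the regulator ERRFI1 (0.30) ended under 11 and 4 of 22 alternatives. EREG, the ligand epiregulin, was at 11.67 in T2, 9.59 in T3, 11.58 in T6 and 10.70 in T8, against 7.92 and 7.57, a rise of 3.14 ± 0.11 (adjusted p = 1.78e-11) that was smallest in T3. The list of TGF-beta, activin and BMP genes had 10 higher and 3 lower of 37. INHBA, the subunit of activin A, was at 7.76 in T2, 10.46 in T3, 8.96 in T6 and 9.07 in T8, against 6.36 and 6.69, a rise of 2.54 ± 0.08. FST, the secreted antagonist follistatin that binds activin, ran from 12.44 to 12.73, with a median of 12.57, against 11.03 and 11.14, and rose by 1.49 ± 0.05 (adjusted p = 8.73e-12). A ligand and its antagonist thus rose together, unevenly for INHBA and within 0.23 over the tumours for FST. GDF15 (1.29 ± 0.07) and BMP2 (1.12 ± 0.10) rose, and BMP4 (-0.64 ± 0.05) and GDF5 (-0.94 ± 0.10) fell. Averaging over probe sets gave 1.85 for EREG, -0.71 for CSF1 and 0.31 for GDF15.

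Of 24 G protein coupled receptors 5 rose and 2 fell. F2RL2, a protease-activated receptor cleaved by thrombin, was at 6.66 in T2, 8.08 in T3, 7.08 in T6 and 7.86 in T8, against 5.02 and 5.13, a rise of 2.35 ± 0.10 (adjusted p = 1.06e-10). S1PR3, a receptor for sphingosine 1-phosphate, rose by 1.12 ± 0.08. ADGRF1, an adhesion receptor, was at 4.67 in T2, 5.78 in T3, 5.41 in T6 and 6.49 in T8, against 8.04 and 8.06, a decrease of -2.46 ± 0.14. P2RY2, a receptor for extracellular ATP and UTP, fell by 0.98 ± 0.07. Mean differences over all probe sets were 1.26 for F2RL2, 0.57 for S1PR3 and -1.56 for ADGRF1.

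Genes downstream of the ERK kinases rose more often than they fell. Shared genes in general did so as well, with 8.87% higher and 5.41% lower over all genes, a balance that depended on scaling. Feedback phosphatases and adaptors of the pathway had 8 higher and 2 lower of 23. DUSP1, a phosphatase of JNK, p38 and ERK, ran from 11.75 to 12.18, with a median of 11.90, in the tumour arrays, against 9.97 and 9.999 in parental arrays, and rose by 1.93 ± 0.05 (adjusted p = 1.80e-12). One of its 2 other probe sets was not higher (-0.25) and the other gave 1.89. DUSP6, the ERK phosphatase of the cytoplasm, ran from 12.15 to 12.78, with a median of 12.41, against 11.84 and 11.29, and rose by 0.86 ± 0.10, although the parental arrays were well apart. DUSP14 rose by 0.58 ± 0.06 and DUSP10, a phosphatase of JNK and p38, fell by 0.86 ± 0.07. Immediate early genes outside AP-1 had 6 higher and 2 lower of 21, with a median of 0.19. Of these 8 calls 3 were kept under all 22 alternatives. The genes that fell, IER3 (-0.30) and IER5 (-0.26), were not among those kept. EGR1, a zinc finger factor induced by ERK, was at 10.06 in T2, 10.41 in T3, 9.14 in T6 and 10.08 in T8, against 7.71 and 7.63, a rise of 2.25 ± 0.07 (adjusted p = 4.52e-12). Of 14 subunits of AP-1 and relatives 4 rose and none fell, by less than log2 1 each. JUNB was at 8.44 in T2, 9.05 in T3, 8.61 in T6 and 8.78 in T8, against 8.11 and 7.99, a rise of 0.67 ± 0.07, and MAFF rose by 0.58 ± 0.06. FOS rose by 0.80 ± 0.09, but its call in each tumour ended without parental replicate 2 (0.79), without T6 replicate 1 (0.80) and without T6 replicate 2 (0.80). ATF3 rose by 0.57 ± 0.08, but its call ended without T6 replicate 1 (0.57), as a mean over its probe sets (0.24) and without the less specific ones (0.05). Over all probe sets, the difference averaged 1.19 for DUSP1.

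Regulators of other signalling routes followed. SOCS genes, which damp cytokine receptors, and STAT factors had 4 higher and 1 lower of 19. SOCS2, known to restrain growth hormone signalling, ran from 9.92 to 10.65, with a median of 10.27, against 8.52 and 8.46, and rose by 1.75 ± 0.07 (adjusted p = 1.01e-10), while SOCS6 fell by 0.82 ± 0.11. Hippo pathway genes and targets of its effector YAP had 7 higher and 1 lower of 25, and a median of 0.27. Of these 8 calls 4 were kept under all alternatives tried. Those not kept were increases, of NF2 (0.51), YAP1, SAV1 and TAOK3. The activity of YAP itself was not tested. VGLL3, a cofactor of the TEAD factors that partner YAP, ran from 7.03 to 7.93, with a median of 7.32, against 5.89 and 5.61, and rose by 1.62 ± 0.13 (adjusted p = 1.11e-07). ANKRD1, a target of YAP, rose by 0.93 ± 0.07 and TEAD4 by 0.64 ± 0.05, while AMOTL1, which tethers YAP at junctions, fell by 0.67 ± 0.06. CCN2, a further target, was not called in each tumour. It stood at 12.30 in T2, 13.35 in T3, 12.98 in T6 and 13.47 in T8, against 12.28 and 12.24 in parental cells, so T2 was at the parental level. The list of PI3K, AKT and mTOR genes had 4 higher and 3 lower of 26 and a median of -0.02. PIK3CG, a catalytic subunit typical of leukocytes, was at 6.27 in T2, 4.65 in T3, 6.04 in T6 and 5.21 in T8, against 4.15 and 3.97 near background, a rise of 1.48 ± 0.12. Averaging over probe sets gave 1.03 for VGLL3 and -0.39 for AMOTL1.

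Genes of antigen presentation fell in several groups. Of 17 class II genes 8 fell and 1 rose, with a median of -0.56. HLA-DRA, the alpha chain of HLA-DR, ran from 5.43 to 6.51, with a median of 6.36, over the tumour arrays, against 9.23 and 9.17 in parental arrays, and fell by 2.96 ± 0.12 (adjusted p = 9.38e-11). HLA-DPA1, the alpha chain of HLA-DP, was at 5.62 in T2, 5.63 in T3, 6.68 in T6 and 6.17 in T8, against 9.56 and 9.22, a decrease of -3.37 ± 0.12. CD74, which escorts class II chains and fills their groove, was at 7.70 in T2, 8.51 in T3, 8.42 in T6 and 9.08 in T8, against 11.11 and 11.11, a decrease of -2.69 ± 0.11. T2 was the lowest tumour for HLA-DRA and CD74, and no tumour array reached a parental one. HLA-DRB1 fell by 1.72 ± 0.08 and HLA-DMA, which exchanges peptides on class II molecules, by 1.39 ± 0.09. CIITA, the transactivator that switches class II genes on, was at 6.04 in T2, 6.06 in T3, 5.90 in T6 and 5.92 in T8, against 5.94 and 6.39 in parental arrays, a difference of -0.18 ± 0.13 that was not called (adjusted p = 0.285). RFX5, which binds the promoters, was lower in the mean of the tumours by 0.25 ± 0.05 (adjusted p = 0.00182) but was not called in each of them.

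Of 11 tested class I genes 7 fell and none rose, with a median of -0.66. HLA-B ran from 12.88 to 13.20, with a median of 13.08, against 14.13 and 14.13, and fell by 1.06 ± 0.04 (adjusted p = 1.14e-10). HLA-C ran from 12.83 to 13.04, with a median of 12.94, against 13.78 and 13.81, and fell by 0.86 ± 0.04 (adjusted p = 8.70e-10). Classical class I genes are nearly identical over long stretches, and their probe sets can share signal. NLRC5, the class I transactivator, ran from 5.55 to 6.03, with a median of 5.82, against 6.84 and 7.04, and fell by 1.15 ± 0.11 (adjusted p = 8.58e-07). B2M, the invariant light chain, differed by -0.32 ± 0.04. Of 14 genes of peptide loading and the immunoproteasome, 9 fell and none rose, with a median of -0.45. PSMB9, an immunoproteasome subunit, was at 9.10 in T2, 9.11 in T3, 9.58 in T6 and 9.51 in T8, against 10.68 and 10.77, a decrease of -1.40 ± 0.06 (adjusted p = 1.41e-10). PSMB10, another such subunit, fell by 1.01 ± 0.07. TAPBP, which holds class I at the peptide transporter, fell by 0.81 ± 0.05. IRF1, a transcription factor of these genes, fell by 0.73 ± 0.08, most in T3. The transporter subunit TAP1 fell by 0.40 ± 0.05, most in T3, whereas TAP2 stood at -0.02 ± 0.06 and was not called (adjusted p = 0.763). The general chaperones of the endoplasmic reticulum in the list, CALR (-0.03), CANX (-0.04) and PDIA3 (0.07), were not called either. With tumours as replicates 5 of the 17 class II genes, 5 of the 11 class I genes and 2 of the 14 peptide loading genes were called.

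**Figure D3:**
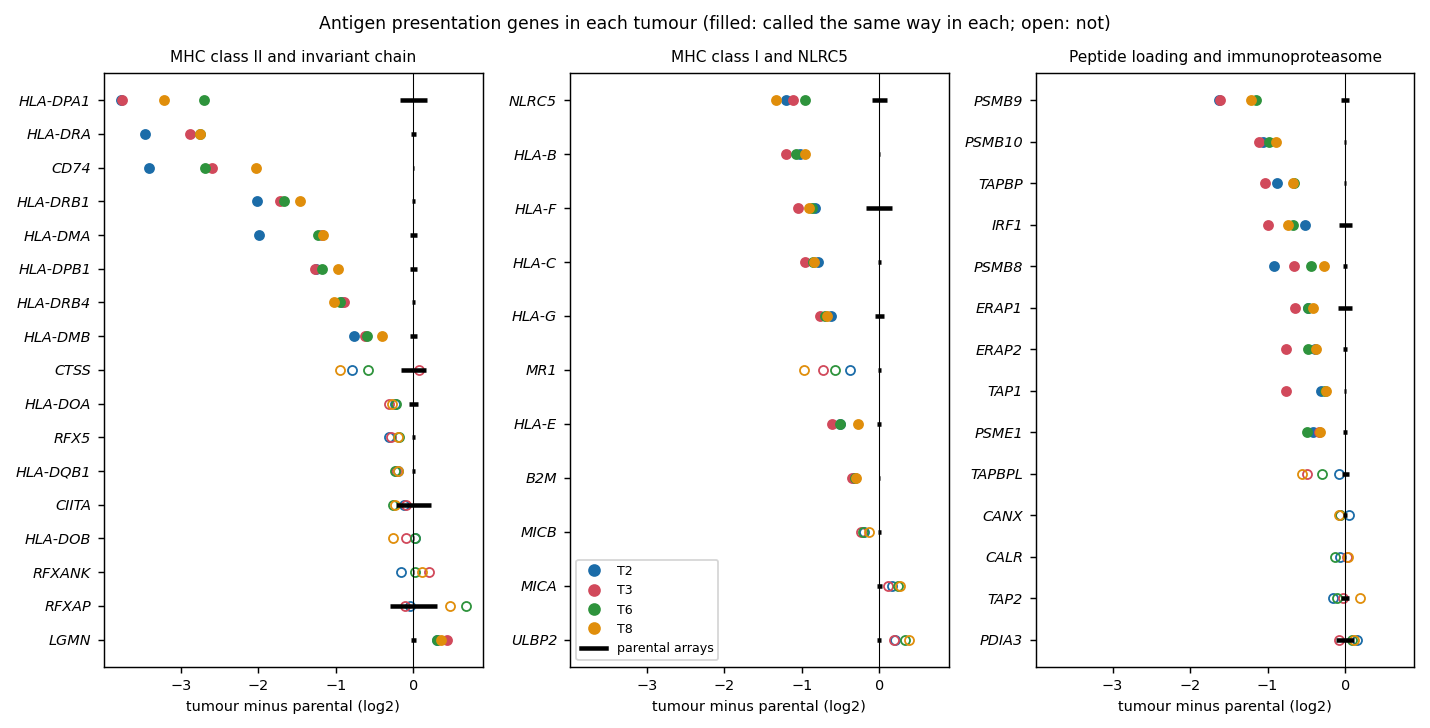
Difference of each tumour from the parental mean (log2, horizontal axes) for the tested genes of 3 antigen presentation lists, with filled circles for genes of the shared set and open circles for the others. Black bars span the 2 parental arrays around their mean. HLA-DPA1, HLA-DRA and CD74 lie at -2 or below in each tumour, HLA-B near -1, and CIITA within 0.3 of 0.

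Interferon response genes overlap with this machinery in their control, since many are switched on through the same promoter element. Of 45 tested, 12 fell and 3 rose, with a median of -0.29. Of these 15 calls 6 were kept under all alternatives tried, and 9 ended under at least 1 of them. With tumours as replicates 1 of the 45 genes was called. The genes described next were among those whose call was kept. SAMD9L, an antiviral growth suppressor, ran from 6.03 to 6.51, with a median of 6.24, against 7.96 and 8.09, and fell by 1.75 ± 0.09 (adjusted p = 1.77e-09). BST2, the virus tether tetherin, was at 9.03 in T2, 9.43 in T3, 9.46 in T6 and 9.54 in T8, against 10.09 and 10.18, a decrease of -0.77 ± 0.07 (adjusted p = 2.65e-07). DTX3L, a ubiquitin ligase, fell by 0.68 ± 0.09. IFITM1, an interferon-induced membrane protein, moved the other way, from 10.76 to 11.08, with a median of 10.85, against 10.21 and 10.18, a rise of 0.68 ± 0.05 (adjusted p = 5.55e-08).

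The promoters of 5 of these genes that fell in each tumour are shown because they carry the core of the interferon-stimulated response element on either strand, GAAA, any 2 bases and GAAA, set in capitals. Each window spans the start of the gene's transcript, from RefSeq on GRCh38.p14, written 5′ to 3′ on the strand of the gene. TAP1 is at chr6:32853655-32853954 (minus strand), HLA-F at chr6:29723184-29723483 (plus strand), B2M at chr15:44711267-44711566 (plus strand), BST2 at chr19:17405581-17405880 (minus strand) and SAMD9 at chr7:93117930-93118229 (minus strand). In TAP1 and HLA-F the capitals read as the reverse complement, and in TAP1, B2M and BST2 they cover 2 overlapping matches.
TAP1: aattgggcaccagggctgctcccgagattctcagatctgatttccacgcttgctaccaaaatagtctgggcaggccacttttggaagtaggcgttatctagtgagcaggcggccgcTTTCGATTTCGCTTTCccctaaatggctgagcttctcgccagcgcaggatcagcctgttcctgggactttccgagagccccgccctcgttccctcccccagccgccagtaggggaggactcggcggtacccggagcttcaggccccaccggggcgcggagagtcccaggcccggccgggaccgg
HLA-F: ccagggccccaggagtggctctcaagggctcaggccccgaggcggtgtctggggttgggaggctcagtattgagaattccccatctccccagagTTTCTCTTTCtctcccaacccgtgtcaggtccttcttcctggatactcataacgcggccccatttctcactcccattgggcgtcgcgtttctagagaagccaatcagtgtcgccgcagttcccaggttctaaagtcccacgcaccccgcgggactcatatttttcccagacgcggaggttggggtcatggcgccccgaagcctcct
B2M: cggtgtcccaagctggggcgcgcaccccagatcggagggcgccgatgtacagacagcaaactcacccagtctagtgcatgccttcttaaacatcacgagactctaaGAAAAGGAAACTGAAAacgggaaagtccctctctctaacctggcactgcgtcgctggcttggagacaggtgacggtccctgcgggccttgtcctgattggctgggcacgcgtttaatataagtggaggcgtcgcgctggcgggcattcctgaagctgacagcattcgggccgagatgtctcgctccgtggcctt
BST2: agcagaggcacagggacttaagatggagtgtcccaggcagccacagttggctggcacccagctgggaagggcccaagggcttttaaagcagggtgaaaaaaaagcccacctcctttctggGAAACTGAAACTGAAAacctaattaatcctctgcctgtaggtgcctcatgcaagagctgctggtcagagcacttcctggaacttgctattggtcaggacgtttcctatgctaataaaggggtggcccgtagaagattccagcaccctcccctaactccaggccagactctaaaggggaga
SAMD9: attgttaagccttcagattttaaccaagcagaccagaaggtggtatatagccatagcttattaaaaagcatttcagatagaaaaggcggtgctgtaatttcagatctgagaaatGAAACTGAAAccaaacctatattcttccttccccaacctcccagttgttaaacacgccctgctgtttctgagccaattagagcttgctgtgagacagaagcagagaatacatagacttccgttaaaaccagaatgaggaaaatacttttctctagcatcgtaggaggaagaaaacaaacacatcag

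The core was present in 996 of all 27305 promoters in the table (3.65%) and in 324 of the 11887 promoters of tested genes (2.73%). It was found in 7 of the 14 promoters on hand for class I and peptide loading genes that fell in each tumour, among them PSMB10, PSME1, TAPBP and ERAP1, and in 1 of the 8 for those that did not. Among interferon response genes it was found in 6 of 11 promoters of those that fell and in 19 of 25 of those that did not, so it was not more frequent among those that fell. None of 6 class II promoters of genes that fell held it. A match is a description of the letters, not evidence that a factor binds there. Of the genes shown, the calls of TAP1, HLA-F, B2M and SAMD9 ended under at least 1 of 22 alternatives, and that of BST2 under none.

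Genes of the IAP proteins, which SM-164 targets, and of their antagonists moved by less than log2 1. Of 10 IAP proteins and antagonists 3 rose and 1 fell. HTRA2, a mitochondrial protease that antagonises IAPs, ran from 10.15 to 10.47, with a median of 10.32, against 9.81 and 9.78, and rose by 0.54 ± 0.05 (adjusted p = 1.14e-06). DIABLO, which encodes Smac itself, rose by 0.29 ± 0.05, and BIRC2, the IAP protein cIAP1, by 0.32 ± 0.05. The call of BIRC2 in each tumour ended without parental replicate 2 (0.30), without T3 replicate 2 (0.31) and without the trend of variance on level (0.32). That of DIABLO ended without the trend as well, after repeated quantile normalisation (0.18), and without parental replicate 1 (0.30), parental replicate 2 (0.28) or T3 replicate 2 (0.29). XAF1, an IAP antagonist induced by interferon, fell by 0.82 ± 0.12, a call that ended without parental replicate 1 (-0.66) or T6 replicate 2 (-0.80). XIAP, the caspase inhibitor, was at 9.23 in T2, 10.22 in T3, 9.88 in T6 and 10.04 in T8, against 9.86 and 9.46 in parental cells. It was not called for the mean of the tumours. Single tumours moved apart, with XIAP called lower in T2 (-0.43, limma adjusted p = 0.0153). It was called higher in T3 (0.56, adjusted p = 0.00258) and T8 (0.37, adjusted p = 0.0254). Caspases and the apoptosome had 5 higher and 2 lower of 15. CASP4, an inflammatory caspase that senses bacterial lipid, ran from 9.15 to 9.61, with a median of 9.46, against 8.001 and 8.01, and rose by 1.40 ± 0.07 (adjusted p = 8.23e-10). CASP2 fell by 0.67 ± 0.05 and PYCARD, the adaptor of inflammasomes, by 0.83 ± 0.08. CASP9, the initiator caspase of the apoptosome, rose by 0.67 ± 0.07 on its brightest probe set, but without the less specific ones it stood at -0.14 (adjusted p = 0.309). BCL2A1, an anti-apoptotic BCL2 relative, was at 7.92 in T2, 5.09 in T3, 6.70 in T6 and 5.96 in T8, against 3.67 and 3.67 in parental cells near background, a rise of 2.75 ± 0.11. Mean differences over all probe sets were 0.79 for CASP4 and -0.43 for CASP2.

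Reductases were among the metabolic genes that changed. Aldo-keto reductases and short-chain dehydrogenases had 6 higher and 4 lower of 22, and 5 were called with tumours as replicates. Beside AKR1C3, AKR1C2 fell by 1.18 ± 0.11 and AKR1C1 by 1.38 ± 0.09, although AKR1C1 stood at -0.17 without its less specific probe sets (adjusted p = 0.202), and these genes are close in sequence. DHRS3, a retinal reductase, fell by 0.96 ± 0.09. RDH10, a retinol dehydrogenase, rose by 0.73 ± 0.10. HSD17B2, which inactivates oestradiol and testosterone, was at 7.38 in T2, 5.63 in T3, 7.70 in T6 and 6.81 in T8, against 4.98 and 5.16, a rise of 1.81 ± 0.09. Aldehyde dehydrogenases and retinoid genes had 3 higher and 3 lower of 23. CYP26B1, which degrades retinoic acid, ran from 7.46 to 8.51, with a median of 7.78, against 6.49 and 6.59, and rose by 1.34 ± 0.08. The retinoid-induced RARRES2 fell by 1.12 ± 0.12 and the receptor RXRA by 0.59 ± 0.06. Targets of the oxidative stress factor NRF2 had 1 higher and 5 lower of 18. NQO1, a quinone reductase, ran from 10.28 to 10.75, with a median of 10.52, against 11.39 and 11.27, and fell by 0.83 ± 0.05. EPHX1, an epoxide hydrolase, fell by 1.01 ± 0.07. SLC7A11, the cystine importer of the same list, rose by 0.81 ± 0.06 and was within 0.09 over the tumours. Glutathione enzymes and peroxidases had 1 higher and 7 lower of 31. Of these 8 calls 2 were kept under all 22 alternatives, those of GSTK1 (-0.88 ± 0.06) and GPX7 (-0.90 ± 0.13). Over all probe sets, differences averaged 0.35 for RDH10, 0.75 for CYP26B1 and -0.26 for RXRA.

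Fatty acid synthesis and desaturation had 5 higher and 1 lower of 15, and fatty acid oxidation and lipid droplets 7 higher and 1 lower of 27. SCD, the stearoyl-CoA desaturase, was at 10.15 in T2, 10.64 in T3, 10.64 in T6 and 10.55 in T8, against 9.72 and 9.61, a rise of 0.83 ± 0.07 (adjusted p = 1.90e-07). FADS3, a front-end desaturase relative, rose by 0.75 ± 0.05. FABP5, a fatty acid carrier, ran from 11.46 to 11.90, with a median of 11.73, against 10.94 and 10.66, a rise of 0.91 ± 0.07. The list medians were small, 0.06 and 0.15. The tricarboxylic acid cycle list had 5 higher and 2 lower of 24 and a median of 0.004. SUCLG1, a subunit of succinyl-CoA ligase, rose by 0.65 ± 0.05, and MDH1, the cytosolic malate dehydrogenase, by 0.45 ± 0.05. PDHA1, the E1 subunit of pyruvate dehydrogenase, fell by 0.57 ± 0.05. Amino acid transporters had 6 higher and 1 lower of 27. SLC38A1, a glutamine carrier, rose by 0.54 ± 0.07, though 1 of its other probe sets gave -0.18, and SLC7A5, the exchanger of large neutral amino acids, fell by 0.51 ± 0.05. SLC3A1 (1.82 ± 0.11) and SLC1A1 (1.19 ± 0.11) rose too, most in T2 and T6. Averaging over probe sets gave 0.30 for SUCLG1, 0.27 for SLC38A1 and 0.76 for SLC1A1.

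Lysosomal genes had 4 higher and 8 lower of 36, and a median of -0.17. Cathepsins split. CTSC, which activates granule proteases, ran from 11.97 to 12.31, with a median of 12.20, against 11.30 and 11.14, and rose by 0.96 ± 0.06 (adjusted p = 4.09e-09). CTSD (-0.59 ± 0.06), CTSH (-0.61 ± 0.07), CTSF (-0.55 ± 0.06) and CTSO (-0.76 ± 0.09) fell. Transporters of water, urea and bicarbonate had 4 higher and 1 lower of 19. The urea transporter SLC14A1 was at 8.65 in T2, 6.88 in T3, 9.23 in T6 and 8.13 in T8, against 5.62 and 5.25, a rise of 2.79 ± 0.11. CA2, a carbonic anhydrase, was at 7.77 in T2, 6.27 in T3, 7.32 in T6 and 6.75 in T8, against 5.42 and 5.02, a rise of 1.81 ± 0.12. Both were lowest in T3 among the tumours, yet above the parental arrays, while AQP1 fell. S100 proteins and annexins had 2 higher and 7 lower of 23. S100A4, a calcium-binding protein linked to cell motility, was at 10.37 in T2, 10.49 in T3, 11.001 in T6 and 11.49 in T8, against 13.12 and 13.05, a decrease of -2.25 ± 0.06 (adjusted p = 1.61e-12). S100A2 fell by 2.03 ± 0.06, S100A3 by 1.08 ± 0.08 and S100A5 by 1.13 ± 0.12. These genes lie in a cluster on chromosome 1.

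Genes described in metastatic sublines of MDA-MB-231 had 15 higher and 3 lower of 28, the largest median of any list described, 0.90. The overlap of this list with earlier results on these arrays was known when it was used, so its direction is not independent evidence. Beside MMP1, EREG, PTGS2, CXCL1, CXCL8 and IL11, it held CXCR4, the receptor for CXCL12, which ran from 10.87 to 11.95, with a median of 11.498, against 9.504 and 9.22, and rose by 2.10 ± 0.08 (adjusted p = 3.48e-11). KYNU, a kynureninase of tryptophan breakdown, was at 9.70 in T2, 7.46 in T3, 9.87 in T6 and 8.71 in T8, against 6.41 and 6.43, a rise of 2.51 ± 0.07. MAN1A1, a mannosidase of protein glycosylation, rose by 1.84 ± 0.09. ST6GALNAC5, a sialyltransferase described in brain metastasis, rose by 2.07 ± 0.12 over parental values of 4.38 and 4.13, near background. PCDH7, a protocadherin, was at 9.17 in T2, 6.93 in T3, 8.42 in T6 and 7.61 in T8, against 6.35 and 5.95, a rise of 1.88 ± 0.10, and FSCN1, the actin bundler fascin, rose by 0.86 ± 0.08. L1CAM, an adhesion molecule, went the other way at 6.48 in T2, 5.67 in T3, 6.75 in T6 and 6.998 in T8, against 8.85 and 8.79, a decrease of -2.35 ± 0.10 (adjusted p = 2.24e-10). The mean difference over all probe sets was -1.42 for L1CAM. With tumours as replicates 4 of the 28 genes were called.

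Lists of general cell functions differed in their share of called genes. Ribosome biogenesis had 7 higher and none lower of 35 (20%, with a list median of 0.20), above the 14.3% over all genes. Of 51 cytosolic ribosomal protein genes 1 was called in each tumour, and of 17 cytosolic tRNA synthetases none. DNA repair had 3 higher and none lower of 45, mitosis 3 higher and 2 lower of 50, and DNA replication 2 higher and 4 lower of 44, at 6.67%, 10% and 13.6% against 14.3%. Heat shock proteins and chaperones had 1 higher and 1 lower of 29, autophagy 2 and 1 of 33, and ABC transporters none higher and 1 lower of 21. Hypoxia response genes had 1 higher and 2 lower of 19, and glycolysis 2 higher and 1 lower of 22.

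The tumours agreed in direction for the shared genes by definition, but not in size. An F test among the 4 tumours, which does not use the parental level, called 1117 of the 2132 (52.4%), against 6228 of all genes (41.7%). It does use the same tumour values and the same spread between arrays as the calls that chose the shared set. The 2 shares are therefore descriptions. The smallest of the 4 differences was that of T2 for 637 genes, of T3 for 652, of T6 for 468 and of T8 for 375. The largest was that of T2 for 588, of T3 for 616, of T6 for 307 and of T8 for 621. Among the genes of at least log2 1, MMP3 had the widest range, followed by PTGS2, WDR72, BCL2A1 and INHBA. PTGS2, the inducible cyclooxygenase, differed from parental cells by 2.60 in T2, 5.11 in T3, 2.03 in T6 and 2.15 in T8. WDR72, a WD-repeat protein of enamel formation, differed by 4.44 in T2, 1.46 in T3, 4.15 in T6 and 2.21 in T8. T3 was the highest tumour for MMP3, PTGS2 and INHBA and the lowest for WDR72 and BCL2A1. None of these 5 genes was called with tumours as replicates (adjusted p of 0.215 to 0.376). Over all probe sets, the difference averaged 1.13 for WDR72. At the other end, CSRP2, a LIM-domain protein of muscle and stroma, differed by 1.08 in T2, 1.13 in T3, 1.15 in T6 and 1.14 in T8, and HCP5 by -1.96 in T2, -1.97 in T3, -1.96 in T6 and -1.89 in T8. SLC16A7, a monocarboxylate transporter, rose by 1.21 ± 0.11, CHMP2B, a subunit of the ESCRT machinery, by 1.14 ± 0.09, and ZNF804A by 2.46 ± 0.12. No difference among the tumours was called for any of these 5 genes (adjusted p of 0.795 to 0.943, F test), and each was called with tumours as replicates. The widest and narrowest genes were picked by their range over the tumours. Both the F test and the fit with tumours as replicates read that range, so these outcomes follow from the choice.

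**Figure D4:**
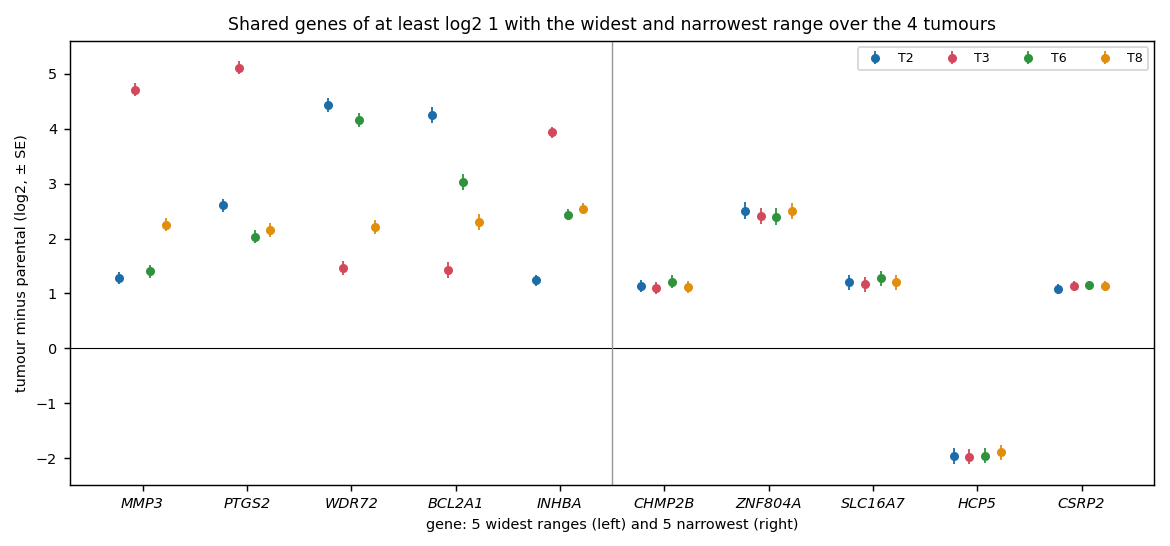
Difference of each tumour from parental cells (log2 with SE, vertical axis) for the 5 genes with the widest range over the 4 tumours, left, and the 5 with the narrowest, right, among shared genes of at least log2 1. MMP3 ranges from 1.28 in T2 to 4.71 in T3, while the 4 values of CSRP2 lie between 1.08 and 1.15.

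The shared genes were spread unevenly over the chromosomes. On chromosome 12, 191 of 793 tested genes were higher in each tumour and 12 lower (25.6% called), and on chromosome 2, 182 of 977 were higher and 45 lower (23.2%). On chromosome 7 the direction turned, with 23 higher and 129 lower of 691 (22%), as on chromosome X with 11 higher and 58 lower of 476 (14.5%) and chromosome 9 with 18 and 66 of 595 (14.1%). Chromosome 19 had the smallest share, 46 higher and 20 lower of 1087 (6.07%). Genes were ordered along each chromosome by the RefSeq table, and the median difference over 31 neighbouring genes was followed. In 11 stretches of at least 20 genes this running median passed 0.2 in the same direction in each tumour, a window and threshold that were chosen after the data were seen.

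The longest stretch lay on chromosome 12, 102 genes from TMEM19 to LOC100505978, with 53 genes higher and 2 lower in each tumour. Its median differences were 0.32 in T2, 0.41 in T3, 0.46 in T6 and 0.49 in T8. It held CSRP2, SOCS2, DUSP6 and APAF1. Chromosome 2 had 3 stretches, from LCLAT1 to DHX57 (34 genes, median 0.44), from RPL23AP32 to NFU1 (58 genes, 0.41) and from ZNF638 to TLX2 (36 genes, 0.36). They held 17, 29 and 18 genes that were higher in each tumour. The lower stretches of chromosome 7 ran from COL1A2 to ZNF3 (37 genes, -0.32), from ZNHIT1 to DNAJC2 (21 genes, -0.33) and from MEST to TRPV5 (57 genes, -0.37). Those of chromosome X ran from CNKSR2 to BCOR (25 genes, -0.38) and from ZNF674-AS1 to GLOD5 (31 genes, -0.44), the second of which held TIMP1. Shorter stretches, both higher, lay on chromosome 12 from CLIP1 to RILPL1 (20 genes, 0.35) and on chromosome 14 from TMX1 to WDHD1 (20 genes, 0.29). In all, 441 genes lay in such stretches, 2.96% of those placed. They held 208 of the 2131 placed genes called in each tumour (9.76%) and 12 of the 201 of at least log2 1 (5.97%). Of the genes inside the stretches 47.2% were called in each tumour, and of those outside 13.3%. Since the stretches were drawn from these same differences, those shares are descriptions. Each stretch kept its direction under repeated quantile normalisation, centred medians, both other filters, either other choice of probe sets and without either parental array, with medians between 0.191 and 0.503 for the higher stretches and between -0.191 and -0.515 for the lower ones. Copy number was not analysed here, and its part in the result was not tested.

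**Figure D5:**
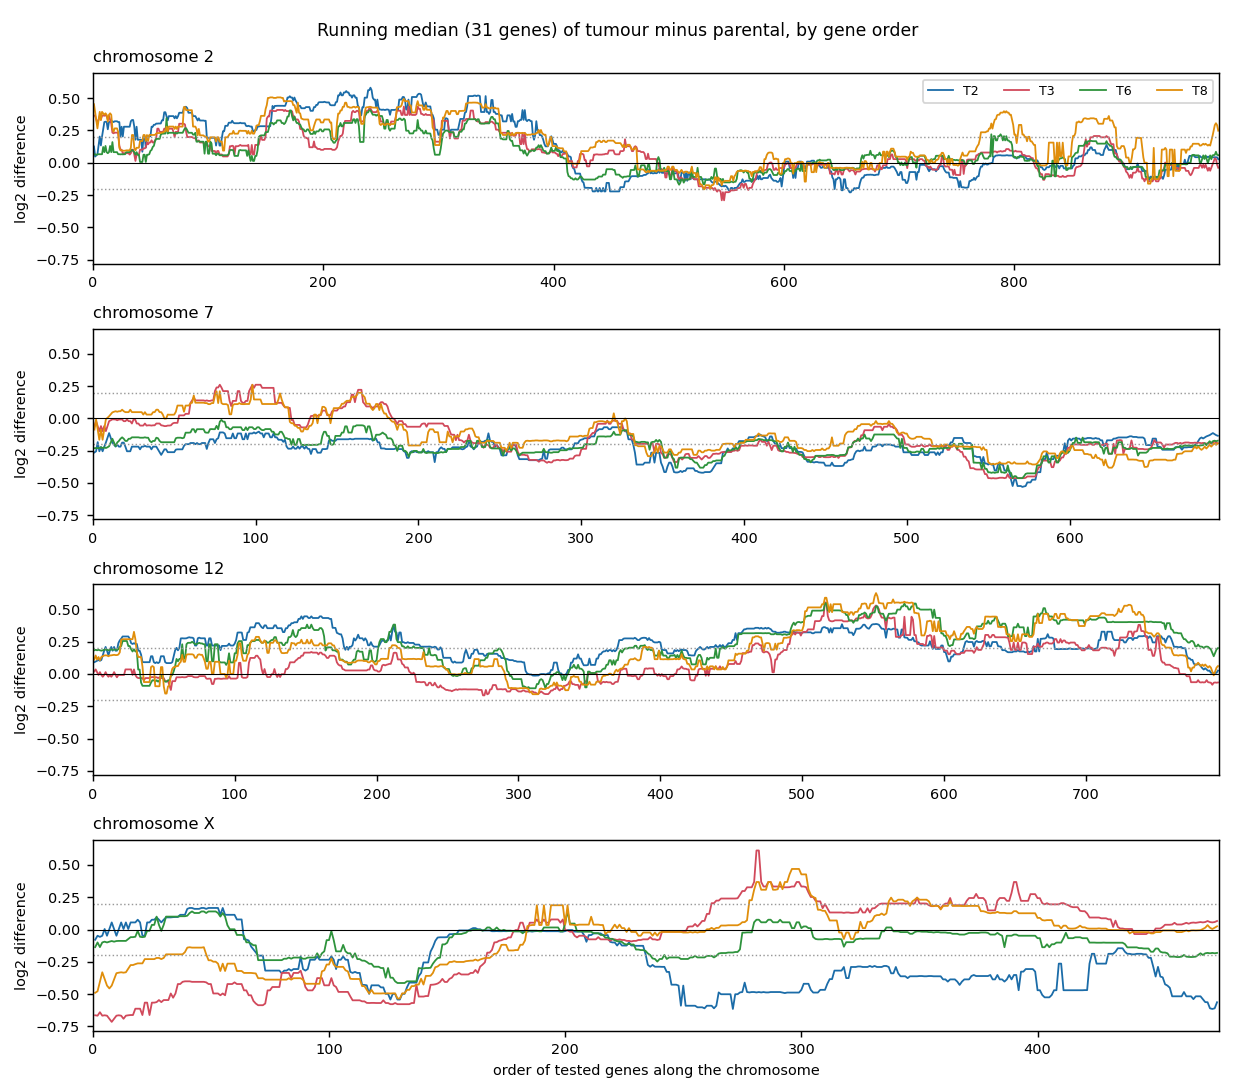
Running median over 31 neighbouring tested genes of each tumour minus parental cells (log2, vertical axes) along the order of genes on chromosomes 2, 7, 12 and X (horizontal axes). Dotted lines mark 0.2 and -0.2. All 4 tumours stand above 0.2 together over long parts of chromosomes 2 and 12 and below -0.2 over parts of chromosomes 7 and X, while the second part of chromosome X differs between tumours.

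Markers of other cells were set beside these results. How tumour cells were separated from mouse cells is not given. Of 14 macrophage markers on the array, CD163, TYROBP, MRC1, MSR1, C1QA, C1QB and LYZ were under log2 5 on all arrays, and the summed level of the list ran from 9.95 to 11.01 in tumour arrays, against 10.99 and 11.06 in parental arrays. That sum is mostly LAPTM5, at 9.16 to 10.68 in tumour arrays and 10.63 to 10.69 in parental arrays. CSF1R, the receptor for CSF1, fell by 0.68 ± 0.11, a call that ended without T2 replicate 2 (-0.65). Endothelial markers had 4 higher and 1 lower of 12 tested and a summed level of 11.93 to 12.41 in tumour arrays, against 11.40 and 11.44 in parental arrays. ESAM, a junction protein of endothelium and platelets, ran from 10.58 to 11.15, with a median of 10.90, against 9.64 and 9.53, and rose by 1.29 ± 0.05 (adjusted p = 9.92e-11). ROBO4 rose by 0.82 ± 0.07 and ICAM2 by 0.53 ± 0.06, and both were already above log2 9 in parental cells, while EMCN and ERG were under log2 5 on all arrays. ENG rose too, but its other probe set gave -0.07 and its call ended as a mean over probe sets (0.47). EGFL7 was the gene that fell (-0.66), a call that ended without T8 replicate 1 (-0.64). PECAM1 ran from 6.67 to 7.37 in tumour arrays, against 7.17 and 7.34 in parental arrays. The tumour values of VWF, TEK and CLDN5 also spanned both parental values. The 8 tested genes of fibroblasts and pericytes had 1 riser, TAGLN, a smooth muscle actin-binding protein at 10.98 in T2, 8.83 in T3, 10.77 in T6 and 9.94 in T8, against 7.51 and 7.56, which stood at 0.11 without its less specific probe sets (adjusted p = 0.433). COL3A1, PDGFRA, LUM, FAP and DPT were under log2 5 on all arrays, with a summed level of that list of 10.49 to 11.59 in tumour arrays, against 10.23 and 10.25 in parental arrays. TAGLN and COL1A1 were the brightest members and weigh most in this sum. COL1A1 ran from 8.28 to 8.97 in tumour arrays, against 8.70 to 8.86 in parental arrays. Of 7 tested markers of blood cells none was called in each tumour, and the summed level of the list was 8.98 to 9.42 in tumour arrays, against 9.20 and 9.30 in parental arrays. Of 6 tested markers of adipocytes and muscle none was called either, and the summed level of the list was 8.88 to 9.09 in tumour arrays, against 8.96 and 9.12 in parental arrays. PTPRC, MS4A1, NKG7, PPBP, ADIPOQ, LEP, FABP4, MYH1 and MYH2 were under log2 5 on all arrays. The part of other cells, mouse cells among them, in the differences described was not tested.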

How the data were processed

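RNA of 10 samples, 8 of tumour cells and 2 of parental cells, had been hybridised to human 3' expression arrays. The deposited log2 values had been background-corrected, quantile-normalised and summarised per probe set by RMA, and limma and affy are named per the submitters' processing notes, with versions not given in the sources used here. Every column of the value table belongs to a labelled sample. Gene symbols came from the array's annotation, updated by Entrez identifier through the RefSeq table. Of 54675 probe sets, 62 are controls, 41091 have 1 symbol, 1801 several and 11721 none. Each of 19775 genes was read from the probe set with the highest mean, and 14929 genes above log2 5 on at least 2 arrays were tested. The number of arrays limits the precision.

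Samples were grouped by title. limma 3.58.1 in R 4.3.3 was fitted with 1 coefficient per line, a variance trend and 5 residual degrees of freedom, and p-values were adjusted by Benjamini and Hochberg at 0.05 over all genes tested. A gene was called in each tumour when all 4 differences from parental cells passed with the same sign. Differences among tumours were tested by limma's F test, and a second fit used the 5 line means. Genes were named by rule: the 15 per direction with the largest of the smallest tumour differences, up to 4 called members per direction of each list described, or 2 members where none was called, and the 5 widest and 5 narrowest ranges over tumours among genes of at least log2 1. CIITA, RFX5, TAP1, TAP2, B2M, SAMD9, PSME1, ERAP1, CALR, CANX, PDIA3, HLA-DMA, KYNU, MAN1A1, ST6GALNAC5, PCDH7, FSCN1, XIAP and CCN2 were added after their values were seen. The members and lists were chosen with earlier results of these data known. Alternatives were 2 other scalings, 2 other filters, 2 other choices of probe set, no variance trend, a replicate block, a random block for the line, line means and leaving out each array or tumour. Listed members whose call ended under an alternative are counted over the shared set and for some lists and, apart from those described, not named. The fit was tested on simulated data. Promoters were read from the RefSeq table for GRCh38.p14.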

Additional observations from a re-analysis of the deposited data

Results flagged for a closer look

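For 14 of the 238 genes named by rule, the mean of 1 tumour stood far from the other 3, by a test on the largest gap in the range. Such a test picks out about 1 in 20 groups by chance alone, and the count is close to that rate. All 14 were called the same way in each tumour, as were 232 of the 238, since the rule chose mostly such genes. In T8 these were COL12A1 (9.371), ITGB2 (8.974), IER5 (10.811), SOCS7 (8.953), IFITM1 (11.072), DGAT2 (7.834) and ICAM2 (10.234). In T3 they were NRK (9.556), FLG (4.476), COL4A1 (9.46) and CLDN1 (7.506). In T2 they were SUSD5 (7.374), SOCS6 (5.822) and PHLPP1 (7.942), and none was in T6.

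Probe sets that carry no gene symbol were outside the comparison. Of 4214 such probe sets that passed the same filter, 186 were called in each tumour (4.41%), with 92 higher and 94 lower, beside 14.3% of named genes. Of 1301 probe sets that match several symbols, 9.61% were called, with 70 higher and 55 lower.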

How the results depend on the processing

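The count for the mean of the tumours, 6314, ran from 4099 to 6877 as single arrays were left out. It was 1107 with the line as a random block and 195 from line means. That of T6, 5149, ran from 3255 to 5585. Genes called in each tumour by at least log2 1 numbered 122, against 201, when probe sets were averaged. On specific probe sets alone, 5 named genes reversed: TENM3 (-0.12), COL6A2 (0.015), CASP9 (-0.14), ANXA6 (-0.0083) and HBB (0.066), and the cause was not tested. For the mean of the tumours, 5123 of the other values of named genes under alternatives kept their side of the threshold, 35 lost it and 3 gained it. The call in each tumour was lost more often, in 292 of 5037 values of the 232 named genes called, and 156 of these genes kept it throughout. It ended most often without parental replicate 2 (35 genes) and as a mean over probe sets (31 genes), and under the most alternatives for SOCS7 (16), IER5 (14), PLOD2 (12) and TRIB1 (12). Line means gave 83 higher and 101 lower after repeated quantile normalisation, and 123 and 68 after centring. Same-numbered arrays deviated together in 4 of 10 pairs of groups (correlations over 0.1, the highest 0.502 for T2 and T3) and not in the other 6 (down to -0.387), so the numbers were not taken to pair the samples, and with a replicate block 2025 genes were called in each tumour, against 2132, and 201 by at least log2 1. Brightness limits genes near log2 5, where 18 of the 129 large increases began.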

Other observations

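Lists with fewer called members held some one-sided counts. Receptors and ligands of the SLIT, netrin and UNC5 axon guidance families had 4 members higher in each tumour and none lower of 22, with a list median of -0.08. NF-kB subunits and regulators had 3 higher and none lower of 19, HOX genes 3 and none of 17, and SOX and FOX factors 5 and 1 of 26. Core histone genes had the largest median of these lists, 0.30, with 2 higher and none lower of 17. Complement components and regulators had none higher and 3 lower of 14, and Toll-like and NOD receptors none and 3 of 16. These counts stand beside 8.87% higher and 5.41% lower over all genes, and the lists were picked from 108 after their values were seen.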
